A study of Drosophila melanogaster with 12 samples.

Results

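All 12 arrays of the series, from mated *Drosophila melanogaster* females, were used to ask whether loss of the p24 gene *logjam* (*loj*) changed transcript levels by different amounts in 2 body parts. The quantity tested for each of 18769 probe sets (all but the array's own controls) is the *loj* minus control difference in head/thorax minus the *loj* minus control difference in abdomen, on the log2 scale. A positive value therefore means that *loj* females were higher relative to controls in the head/thorax than in the abdomen. The 4 groups hold 3 samples each: *loj* head/thorax, control head/thorax, *loj* abdomen and control abdomen. The *loj* females carry the allele pair loj00898/loj04026, which the study calls strongly hypomorphic and probably null. Each control sample pooled 6 loj00898/+ and 6 loj04026/+ females, so controls also carry 1 mutant copy of the gene. Every sample was tissue of 12 females aged 4 days, collected 3 h after mating with a wild-type male. Abdomens held ovary, genital tract, gut and abdominal fat, and the head/thorax samples held the entire central nervous system, flight muscle and head fat. Which abdomen and head/thorax samples came from the same females is not stated, and nothing says that the samples of a group came from separate cultures, so p-values measure the spread between these samples.

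The p24 proteins are small transmembrane proteins of vesicles that shuttle between the endoplasmic reticulum (ER) and the Golgi, where they help to select secreted and membrane proteins as cargo. Secretion matters in both body parts: fat body cells release antimicrobial peptides and lipoproteins, gut cells release enzymes, and follicle cells lay down the eggshell. In flies, antimicrobial peptide genes are switched on by the Toll and Imd signaling cascades, which end in the NF-κB factors Dif, Dorsal and Relish, and the fat body is their main site of synthesis. Fat body cells occur in the head and thorax as well as in the abdomen, so a gene of this tissue can be measured in both samples.

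Each array gives a linear intensity for every probe set. Intensities were set to 1 where lower, taken to log2 and fitted with limma as 4 group means on all 12 arrays. A difference between body parts was called at a Benjamini-Hochberg adjusted p under 0.05 over all 18769 probe sets, and a change within 1 body part where it reached 1.5-fold and its adjusted p in the same fit was under 0.05. A single gene is said to have risen or fallen where its adjusted p in that body part was under 0.05. The background level of an array is the 95th percentile of its 27 *Bacillus subtilis* control probe sets. This level was 126 to 236 in *loj* and 206 to 256 in control head/thorax, and 76.8 to 108 in *loj* and 91.2 to 131 in control abdomens, so a given intensity was more often below the level in controls and in head/thorax. A body part was taken to express a probe set where at least 2 of the 3 arrays of 1 genotype exceeded the level, and not to express it where none of its 6 arrays did. With 3 arrays per group the number of arrays limits the precision, and a fold against a group with no array above the level is given as a bound against that level ("at least").

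The gene *loj* itself had intensities of 40.3, 32.8 and 30.9 in *loj* head/thorax, against 1219.7, 1152 and 1034 in control head/thorax. In the abdomen it had 43.2, 37.5 and 38.1 in *loj*, against 1065, 921 and 1087 in controls. All 6 *loj* samples lay below the background level and all 6 control samples above it, at least 6.97-fold lower in head/thorax and at least 11.8-fold lower in abdomen. The fall of *loj* did not pass the test of a difference between body parts (-0.35, 95% interval -0.74 to 0.04, adjusted p = 0.605). Since both *loj* groups were below the level, this difference has no measured size, and with values set to the level it was 0.75 (adjusted p = 0.389). The markers of each body part were found where the labels place them. Of 21 ovary and eggshell genes 1 was above the level in either head/thorax group and 20 in *loj* and in control abdomens. Of 18 eye genes, 15 in *loj* and 14 in control head/thorax were above the level, against 6 in each abdomen group, and of 15 nervous system genes 12 and 10 in head/thorax against 2 and 1 in abdomen. The 17 flight muscle genes summed to 121688 to 126526 in *loj* and 122608 to 125356 in control head/thorax, and to 8509 to 8989 in *loj* and 7365 to 9386 in control abdomens. None of these 4 lists had summed levels that separated *loj* from control in head/thorax, but the eye genes summed to 1484 to 1682 in *loj* and 1896.5 to 1995 in control abdomens. In a whole body part, fewer cells of a type and less RNA per cell cannot be told apart.

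Technical controls differed between genotypes as well. Among the array's controls, the *Act5C* signal at the 3' end over that at the 5' end (log2), a measure of RNA integrity and labelling, was 1.02, 0.86 and 0.79 in *loj* head/thorax, against 1.44, 1.38 and 1.33 in control head/thorax. In the abdomen it was 0.72, 0.67 and 0.68 in *loj*, against 0.76, 0.79 and 0.91 in controls. The groups did not overlap in either body part, *loj* being lower, and the gap was wider in head/thorax (exact two-sided permutation test, p = 0.1 each, the smallest that 3 against 3 arrays allow). The ratio of 1 *Gapdh* control ran the other way, at 1.53, 1.33 and 1.37 in *loj* head/thorax, against 1.29, 1.22 and 1.33 in control head/thorax, and at 1.98, 2.14 and 1.93 in *loj* abdomens, against 1.79, 1.76 and 1.92 in control abdomens (exact p = 0.1 each), the closest arrays of the 2 genotypes being almost equal. Of 3 further controls of this kind, a second *Gapdh* set was lower in every *loj* head/thorax array (exact p = 0.1), by a narrow margin, and its abdomen groups overlapped, as did the groups of the other 2 in both body parts. The controls thus gave no single direction. The 18S rRNA intensity was 7694, 1116 and 1221 in *loj* head/thorax and 611, 814 and 819 in control head/thorax (exact p = 0.1), with *loj* replicate 1 standing apart. The part of RNA quality in the differences below was not tested.

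The *loj* change differed between head/thorax and abdomen in 95 probe sets (0.506% of 18769). It was higher in head/thorax in 44 (0.234%) and lower in head/thorax in 51 (0.272%), and 1761 probe sets (9.38%) had an unadjusted p under 0.05. Counted as 1 probe set per gene, 36 genes were higher and 41 lower of 12027 (0.64% called), and 1262 had an unadjusted p under 0.05. Counts given below for lists of genes are to be read against these shares. Without control head/thorax replicate 1 the probe set counts were 27 higher and 27 lower, and without *loj* head/thorax replicate 1, the array with the high 18S rRNA signal, they were 76 and 57. Leaving out the other arrays gave 30 to 47 higher and 35 to 60 lower. Of the 95 calls, 45 were also made with each of the 12 arrays left out in turn. With replicate number as a block the counts were 31 and 31 where numbers were shared by the body parts of a genotype (the genotype block) and 30 and 26 where they were shared by the genotypes of a body part (the body part block). Of the 95, 39 were called under both blocks. The numbers are not stated to mark shared flies or days, and where a gene's call was lost in a block its adjusted p is given, that of the genotype block first.

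**Figure D1:**
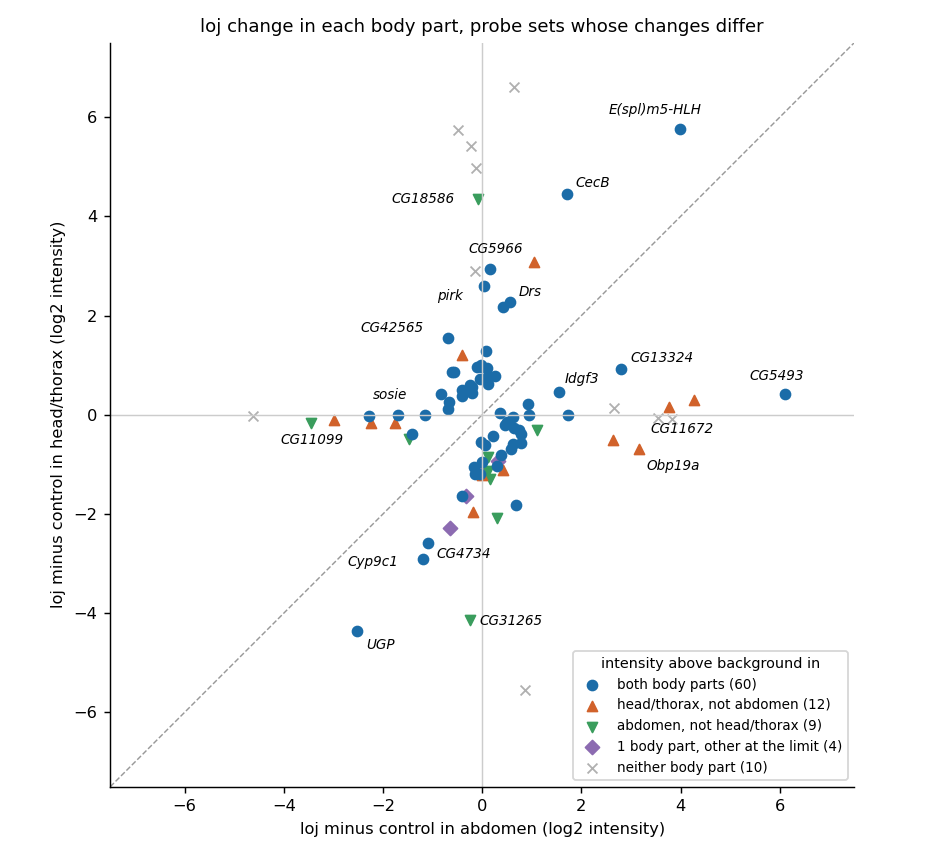
Log2 change of *loj* against control in head/thorax (vertical axis) and in abdomen (horizontal axis) for the 95 probe sets whose changes differ; colour and marker give where the probe set was above background, and the dashed line marks equal changes. Most points lie near 1 of the axes, with a change in 1 body part and little in the other, and crosses with large changes (10 probe sets) were above background in neither.

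A gene that is silent in 1 body part can only change in the other, and intensities under the background level can give large log2 changes from very small values, so the calls were divided by where the transcript was measured. Of the 95 calls, 60 were expressed in both body parts (0.753% of the 7972 probe sets of that kind), 12 in head/thorax and not in abdomen (of 1196), 9 in abdomen and not in head/thorax (of 1617), 4 in 1 body part with the other at the limit (of 615), and 10 in neither (of 7369). For calls expressed in 1 body part alone, the larger of the 2 changes lay in the body part that does not express the gene more often than in the one that does. In 7 of the 12 head/thorax genes it lay in abdomen, and in 6 of the 9 abdomen genes it lay in head/thorax. As a check, every intensity under the level of its array was set to that level. The levels differ between groups, so a probe set below the level on all 12 arrays takes a difference of -0.17 in this way. Of the 60 calls expressed in both body parts 48 were still made, and 1 of 12, 2 of 9, 1 of 4 and 0 of 10 in the other classes. The same fit called 57 further probe sets, 109 in all. The 12 calls expressed in both that were lost were *CecB*, *E(spl)m5-HLH*, *scro*, *CG5493*, *Ugt37A3*, *salm*, *Acsx3*, *Tre1*, *Psf2*, *CG3842*, *Rim2* and 1 probe set without a gene name; *Acsx3*, *Tre1*, *Psf2*, *CG3842* and *Rim2* are outside the rule for named genes.

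**Figure D2:**
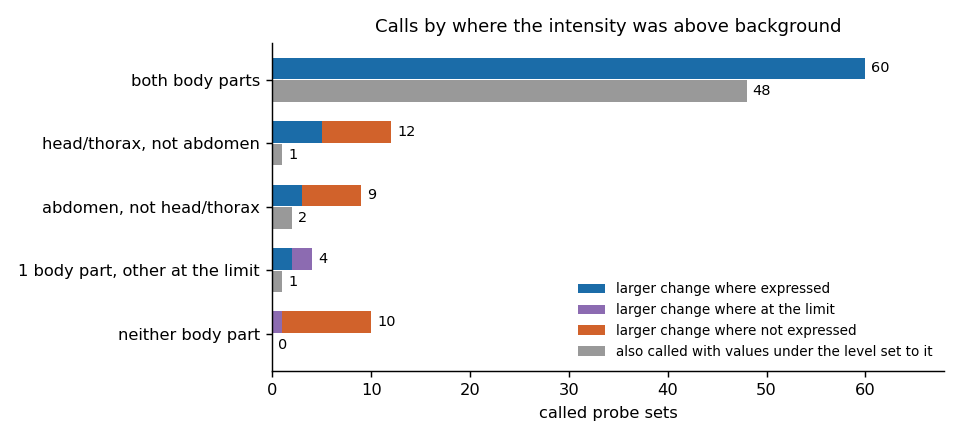
Number of called probe sets by expression class, the upper bar split by whether the larger change lay where the gene was expressed, the lower (grey) bar counting those also called with intensities under the background level set to it. Of 60 calls expressed in both body parts 48 were also called that way, and 4 of the 35 others.

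Among the 60 calls expressed in both body parts, 30 were higher and 30 lower in head/thorax. In 22 of the 30 higher ones the larger change was a rise in *loj* head/thorax, and in 8 a fall in *loj* abdomen. The 30 lower ones divided into 15 with the larger change a fall in *loj* head/thorax and 15 with a rise in *loj* abdomen. All 12 arrays were above the level in 38 of the 60, and differences ranged from 0.32 to 5.70 in size. At an adjusted p under 0.05, only the head/thorax change passed in 28, only the abdomen change in 19, both in the same direction in 7 and both in opposite directions in 6. Without control head/thorax replicate 1 there were 38 such calls.

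Immune genes of the Imd and Toll cascades were among the calls that were higher in head/thorax. *pirk* encodes an inhibitor that acts on the receptors of the Imd pathway. Its intensity was 1846, 2159 and 2292 in *loj* head/thorax, against 366, 287 and 388 in control head/thorax. In the abdomen it was 822, 761 and 727 in *loj*, against 948, 721 and 607 in controls. Each *loj* head/thorax array was thus several-fold above each control, while the abdomen groups overlapped. The change was 2.60 in head/thorax (adjusted p = 6.23e-06) and 0.04 in abdomen (adjusted p = 0.955), a difference of 2.56 (95% interval 2.06 to 3.05, adjusted p = 0.000458), which was called with each array left out and with values set to the level.

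The cecropin gene *CecB*, whose product lyses bacteria, reached 2020.4, 1057 and 2832 in *loj* head/thorax, against 76.0, 63.3 and 121 in control head/thorax. Abdomens had 486, 285 and 468 in *loj*, against 114, 102 and 162 in controls. It rose in both body parts, at least 8.12-fold in head/thorax, where no control array exceeded the level, and by 1.70 on the log2 scale in abdomen. Its difference of 2.75 (95% interval 1.62 to 3.87, adjusted p = 0.0448) held only without *loj* head/thorax 2 or control head/thorax 3, with an adjusted p of up to 0.138 without the others (that is, of the 12 fits with 1 array left out, the call was made in those without these arrays; numbers after a group are its replicates). With values set to the level it was 1.32 (adjusted p = 0.202). Drosomycin (*Drs*), an antifungal peptide, stood at 14288, 10654 and 9861 in *loj* head/thorax, against 3094, 1738 and 2424 in control head/thorax. Its abdomen values were 11634, 8268 and 8012 in *loj*, against 5612, 6085 and 7153 in controls. In both body parts all *loj* arrays lay above all controls, and every abdomen control was brighter than every head/thorax control. The log2 change of *Drs* was 2.28 in head/thorax and 0.55 in abdomen (adjusted p = 0.232), differing by 1.73 (95% interval 1.06 to 2.40, adjusted p = 0.0325). This call held only without control head/thorax 1 or *loj* abdomen 1, with an adjusted p of up to 0.09 without the others, and was lost in the body part block (adjusted p = 0.0628). Beside these genes, the 10 fat body markers summed to 92359 to 95010.0 in *loj* and 88665 to 91643 in control head/thorax, and to 46711 to 49781 in *loj* and 49026 to 52590 in control abdomens, so this sum was higher in every *loj* head/thorax sample while the abdomen ranges overlapped. Of the 10 markers 1 was itself called higher in head/thorax, so the sum is not independent of the calls. The part of fat body content in the immune differences was not tested.

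Across 16 measured genes of the Imd pathway, which runs from the peptidoglycan receptors to Relish, *pirk* was the 1 called (0.64% over all 12027 genes). Of the 16, 5 had an unadjusted p under 0.05 (1262 of 12027 over all genes), with a median difference of 0.14 (0.01 over all genes). Of uncalled list members, *Rel*, *cact*, *BomS2* and *BomBc1* were chosen after their values were seen. *Rel*, which encodes the NF-κB factor Relish, rose in head/thorax (1.26, adjusted p = 5.42e-05) and in abdomen (0.75, adjusted p = 0.00217), and its difference of 0.51 did not pass (adjusted p = 0.216). Of 16 Toll pathway genes none was called for a difference by limma, 8 had an unadjusted p under 0.05 (1262 of 12027 over all genes), and the median difference was 0.14. The nearest was *cact*, the inhibitor that holds Dorsal and Dif in the cytoplasm, with a change of 0.90 in head/thorax and 0.04 in abdomen (difference 0.86, adjusted p = 0.0904). *CecB* and *Drs* were the 2 called of 15 antimicrobial peptide genes (0.64% over all genes), whose median difference was 0.02.

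The short Toll-dependent peptides of the Bomanin and Daisho families had differences mostly on the other side of 0. None of the 13 was called for a difference by limma, and 7 had an unadjusted p under 0.05, against 1262 of 12027 over all genes. Of the 13 differences 1 was above 0, against 6265 of 12027 over all genes, with a median of -0.60. Within body parts 2 of the 13 rose by at least 1.5-fold in *loj* head/thorax and 9 in *loj* abdomen, against 2.03% and 2.06% of the 12027 genes. *BomS2*, for example, changed by 0.31 in head/thorax (adjusted p = 0.342) and by 1.10 in abdomen (adjusted p = 0.0019), with a difference of -0.79 (adjusted p = 0.179). *BomBc1* was the exception, with a difference of 0.32 (adjusted p = 0.869). These genes lie partly in 1 cluster and resemble each other, so they are not independent of one another.

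The receptor of the JAK/STAT pathway, *dome*, was called too. It had 928, 1015 and 981 in *loj* head/thorax, against 479, 488 and 484 in control head/thorax. Abdomens had 1192, 934 and 1000.1 in *loj*, against 1082, 1251 and 859 in controls. The 3 *loj* head/thorax arrays were well above the controls and the abdomen groups overlapped. The changes were 1.01 in head/thorax (adjusted p = 0.00103) and -0.02 in abdomen, differing by 1.03 (adjusted p = 0.029). The call held only without *loj* head/thorax 1, *loj* abdomen 1 or control abdomen 2 or 3, with an adjusted p of up to 0.0889 without the others, and was lost under both blocks (adjusted p = 0.0879 and 0.0908). It was the 1 call among 15 genes of the JAK/STAT pathway and its Turandot targets, of which 2 had an unadjusted p under 0.05 (median difference 0.07). The serpin gene *Spn88Ea*, 1 of 26 measured serpins and the 1 called, had 1094, 1178 and 1133 in *loj* head/thorax, against 657, 567 and 557 in control head/thorax. In the abdomen it had 1975, 1716 and 1779.9 in *loj*, against 1726, 1898 and 1492 in controls. Only the head/thorax groups were apart (0.94, adjusted p = 0.000278; difference 0.84, adjusted p = 0.0215), and the call was lost without *loj* head/thorax 2 or 3, control head/thorax 2 or 3, *loj* abdomen 2 or control abdomen 1 (adjusted p up to 0.0661) and under both blocks (adjusted p = 0.0647 and 0.0908).

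The largest difference above 0 among genes expressed in both body parts was that of *CG5966*, which encodes a predicted triglyceride lipase. Its intensity was 680.3, 1477 and 1472 in *loj* head/thorax, against 133, 165 and 151 in control head/thorax. In abdomens it was 711, 839 and 661 in *loj*, against 635, 694 and 635 in controls. *loj* head/thorax replicate 1 was lower than the other 2 but still above every control, and no control head/thorax array reached the background level, so the rise there was at least 5.08-fold. In abdomen the change was 0.17 (adjusted p = 0.847). The difference of 2.77 (95% interval 2.01 to 3.53, adjusted p = 0.00384) was 2.18 with values set to the level (adjusted p = 0.00119) and was called with each array left out. Control females had this transcript above the level in abdomen alone, and *loj* females in both body parts.

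*CG10383* gave a difference of 1.76 (95% interval 1.35 to 2.17, adjusted p = 0.00116). Its values were 2830.1, 4222 and 4026 in *loj* head/thorax, against 787, 801 and 828 in control head/thorax. The abdomen values were 479, 589 and 564 in *loj*, against 390.2, 411 and 419 in controls. All 12 arrays were above the level, *loj* exceeded control in every pairing of arrays within a body part, and the call held with each array left out. *CG4267*, which falls outside the rule for named genes like the others marked so below, rose by 1.28 in head/thorax and changed by 0.09 in abdomen (difference 1.19, adjusted p = 0.0096). *CG43134*, another such gene, had a difference of 0.76 (95% interval 0.62 to 0.91, adjusted p = 0.000458). It was 1843, 1816 and 1826 in *loj* head/thorax, against 1169, 1049 and 1114 in control head/thorax, and 10493, 10229 and 10245 in *loj* abdomens, against 10742, 10534 and 10604 in control abdomens. Both held with each array left out.

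Several further calls, chosen after their values were seen, encode proteins of the cell surface or of signaling and rose in *loj* head/thorax. *Pvf1*, a growth factor of the PDGF and VEGF family, changed by 0.79 in head/thorax and 0.11 in abdomen (difference 0.68, adjusted p = 0.017; 0.0526 without control head/thorax replicate 1, and lost in the genotype block (adjusted p = 0.0611)). *LpR1*, a lipophorin receptor that takes up lipid, changed by 0.56 and -0.21 (difference 0.77, adjusted p = 0.0243), and its head/thorax groups ran opposite to its abdomen groups without overlap. *Tre1*, a G protein-coupled receptor known for germ cell migration, was at least 1.55-fold higher in *loj* head/thorax and changed by -0.01 in abdomen (difference 0.97, adjusted p = 0.0225). The call of *LpR1* held only without *loj* head/thorax 1, control head/thorax 3, *loj* abdomen 3 or control abdomen 2 or 3, with an adjusted p of up to 0.0844 without the others, and was lost in the genotype block (adjusted p = 0.0571). That of *Tre1* was lost without *loj* head/thorax 2, control head/thorax 1, 2 or 3 or *loj* abdomen 1 or 2 (adjusted p up to 0.065) and under both blocks (adjusted p = 0.0667 and 0.0953) and was lost with values set to the level (0.65, adjusted p = 0.188).

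The cytoplasmic actin genes *Act5C* and *Act42A* were also called, with small differences of 0.50 (adjusted p = 0.0359) and 0.51 (adjusted p = 0.0452). *Act5C* had 9469, 10384 and 10575 in *loj* head/thorax, against 6423, 6717 and 6549 in control head/thorax. In abdomens it had 13196, 11817 and 11767 in *loj*, against 11439.5, 11735 and 10529 in controls. The groups were apart in both body parts, further in head/thorax. *Act5C* is also the transcript whose 3' to 5' ratio separated *loj* from control, and the actin genes are near-identical in their coding sequence, so their probe sets may share signal. The *Act5C* call held only without *loj* head/thorax 1, *loj* abdomen 1 or control abdomen 3, with an adjusted p of up to 0.126 without the others, and was lost under both blocks (adjusted p = 0.15 and 0.0662). The *Act42A* call held only without *loj* head/thorax 1, control head/thorax 3 or control abdomen 2, with an adjusted p of up to 0.145 without the others, and was lost in the genotype block (adjusted p = 0.15).

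**Figure D3:**
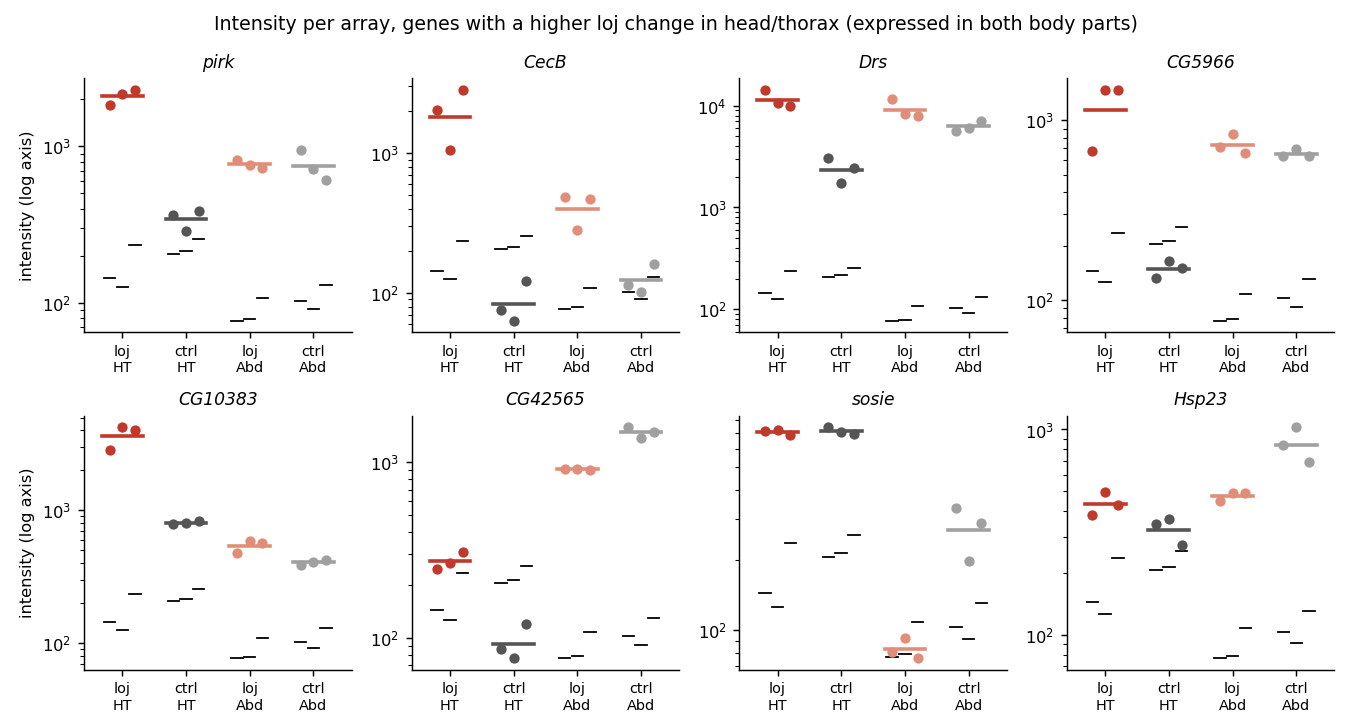
Intensity per array on a log axis in *loj* (red) and control (grey) head/thorax (HT, left) and abdomen (Abd, right) for 8 genes with a higher *loj* change in head/thorax; long bars are means of log2 values (n = 3) and short black bars the background level of each array. *pirk*, *CecB*, *Drs*, *CG5966* and *CG10383* stood higher in *loj* head/thorax. *CG42565* moved in opposite directions at the probe set drawn, and *sosie* and *Hsp23* were lower in *loj* abdomens.

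In the other 8 calls that were higher in head/thorax the larger change was a fall in *loj* abdomens. *sosie*, which encodes a transmembrane protein known from follicle cells of the ovary, had 717, 725 and 686 in *loj* head/thorax, against 742, 707 and 695 in control head/thorax. Abdomens had 80.2, 92.3 and 75.6 in *loj*, against 335, 198 and 287 in controls. The head/thorax groups overlapped, and the abdomen groups were far apart with *loj* close to the background level. The change was -0.01 in head/thorax and -1.70 in abdomen (adjusted p = 0.000227), a difference of 1.69 (95% interval 1.20 to 2.18, adjusted p = 0.00571) that held with each array left out and was lost in the body part block (adjusted p = 0.0677). The ovary and eggshell genes summed to 67132 to 77102 in *loj* and 73989 to 99810 in control abdomens, ranges that overlap.

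The homeobox gene *scro*, which acts in the nervous system, was 329, 378 and 419 in *loj* head/thorax, against 379.9, 363 and 398 in control head/thorax, and 21.1, 27.3 and 18.6 in *loj* abdomens, against 161, 109.9 and 69.8 in control abdomens. No *loj* abdomen array and 2 control abdomen arrays exceeded the level, so only a bound of at least 1.24-fold lower can be given, and with values set to the level the difference was 0.58 (adjusted p = 0.65) in place of 2.26 (adjusted p = 0.0201). Its call was lost without *loj* head/thorax 2 or 3 or control head/thorax 1, 2 or 3 (adjusted p up to 0.0663) and in the genotype block (adjusted p = 0.0691). The small heat shock gene *Hsp23*, a chaperone, had 381, 494 and 427 in *loj* head/thorax, against 344, 365 and 273 in control head/thorax. Abdomens had 446, 493 and 488 in *loj*, against 844, 1024 and 693 in controls. Every *loj* head/thorax sample was above every control and every *loj* abdomen below every control, with changes of 0.41 in head/thorax (adjusted p = 0.194) and -0.83 in abdomen (adjusted p = 0.012). Its difference of 1.24 (adjusted p = 0.0312) held only without *loj* head/thorax 1, control head/thorax 2 or control abdomen 2 or 3, with an adjusted p of up to 0.0789 without the others, and was lost in the body part block (adjusted p = 0.0721). It was the 1 call among 10 heat shock and chaperone genes, whose median difference was 0.0040.

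*Naglu*, chosen after its values were seen, encodes a lysosomal enzyme that trims heparan sulfate. It had 259.8, 283 and 252 in *loj* head/thorax, against 359, 375 and 315 in control head/thorax. In the abdomen it had 292, 286 and 275 in *loj*, against 844, 737 and 712 in controls. It fell in both body parts, without overlap, with changes of -0.40 in head/thorax (adjusted p = 0.0361) and -1.42 in abdomen (adjusted p = 1.33e-05), and the difference of 1.03 (adjusted p = 0.00454) held with each array left out and under both blocks. The predicted amino acid transporter gene *CG7888*, likewise chosen, changed by 0.26 in head/thorax and -0.68 in abdomen (adjusted p = 0.00337; difference 0.94, adjusted p = 0.0136), a call that was lost in the body part block (adjusted p = 0.0848).

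Metabolic and detoxification genes were among the calls that were lower in head/thorax. *UGP* encodes the enzyme that makes UDP-glucose, the building block of glycogen. Its intensity was 75.4, 72.5 and 70.2 in *loj* head/thorax, against 1461, 1520.5 and 1484 in control head/thorax. In abdomens it was 48.1, 60.1 and 45.8 in *loj*, against 324, 253 and 308 in controls. No *loj* array and every control array was above the level, which puts *UGP* lower by at least 9.15-fold in head/thorax and at least 3.38-fold lower in abdomen. The difference was -1.83 (95% interval -2.22 to -1.45, adjusted p = 0.000658) and -1.44 with values set to the level (adjusted p = 0.0153), and the call held with each array left out. Since both *loj* groups were below the level, neither value is a measured size. The second reflects only how far control intensities stood above the level in each body part. *UGP* and *CG5966* were the 2 calls, in opposite directions, among 24 genes of triglyceride and glycogen storage, whose median difference was -0.01.

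*Cyp9c1*, 1 of the cytochrome P450 genes, whose products oxidise hormones, pigments and toxins, had 153, 194 and 159 in *loj* head/thorax, against 1273, 1314 and 1187 in control head/thorax. It had 136, 137 and 129 in *loj* abdomens, against 319, 268 and 333 in control abdomens. It fell without overlap in both body parts, with changes of -2.90 in head/thorax and -1.19 in abdomen, and the difference of -1.71 (95% interval -2.06 to -1.37, adjusted p = 0.000492) held with each array left out. The P450 genes gave 5 calls of 80 measured, against 0.64% of all genes, and all 5 were lower in head/thorax. Of the 80, 19 had an unadjusted p under 0.05, and the median difference was -0.14. The 5 did not share 1 pattern.

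*Cyp6t1* and *Cyp4ac1* fell in head/thorax, with abdomen changes that did not pass. *Cyp6t1* was 433, 472 and 521 in *loj* head/thorax, against 1077, 1121 and 1057 in control head/thorax, and 322, 324 and 326 in *loj* abdomens, against 354, 359 and 356 in control abdomens, changes of -1.19 (adjusted p = 6.23e-06) and -0.14 (adjusted p = 0.418), without overlap in either body part. For *Cyp4ac1* the values were 690.0, 574 and 561 in *loj* head/thorax, against 1313, 1241 and 1174 in control head/thorax, and 200.2, 225 and 194 in *loj* abdomens, against 199.8, 146 and 160.3 in control abdomens, changes of -1.04 (adjusted p = 0.000839) and 0.30 (adjusted p = 0.267). Their differences were -1.06 (adjusted p = 0.000658) and -1.34 (adjusted p = 0.00513). *Cyp12a5*, a P450 of the mitochondrial type, rose in abdomen: it was 1507, 1515 and 1445 in *loj* head/thorax, against 1370.4, 1764 and 1386 in control head/thorax, and 442, 508 and 525 in *loj* abdomens, against 270.3, 239 and 254 in control abdomens. Its change was -0.01 in head/thorax and 0.95 in abdomen (adjusted p = 0.000588; difference -0.96, adjusted p = 0.0149). These 3 calls held with each array left out, but that of *Cyp12a5* was lost under both blocks (adjusted p = 0.0873 and 0.0694). The fifth, *Cyp4ac2*, is the gene next to *Cyp4ac1* on the chromosome and was not expressed in abdomen. Its call was made in only 1 of the 12 fits with an array left out, and its values are described with the genes of 1 body part.

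The UDP-glycosyltransferase gene *Ugt37A3*, which conjugates sugar to small molecules, was the 1 call of 35 in its family. Its intensity was 129.8, 211 and 145 in *loj* head/thorax, against 218, 237 and 246 in control head/thorax, and 117, 118 and 105 in *loj* abdomens, against 72.9, 65.7 and 60.4 in control abdomens. Changes were -0.56 in head/thorax (adjusted p = 0.102) and at least 1.06-fold higher in abdomen (adjusted p = 0.0297), where no control array exceeded the level. The difference of -1.34 (adjusted p = 0.0359) became -0.39 with values set to the level (adjusted p = 0.809) and held only without *loj* head/thorax 2, with an adjusted p of up to 0.0982 without the others, and was lost under both blocks (adjusted p = 0.103 and 0.0821).

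Rises in *loj* abdomen with a smaller change in head/thorax included secreted proteins. *Idgf3*, a chitinase-like growth factor, was 5871, 5676 and 5707 in *loj* head/thorax, against 4122, 4185 and 4238 in control head/thorax. Abdomen values were 2119.8, 2013 and 2022 in *loj*, against 674, 609 and 848 in controls. It rose in both body parts without overlap, by 0.46 in head/thorax (adjusted p = 0.0194) and 1.54 in abdomen (adjusted p = 8.2e-06), and the rises differed by -1.08 (95% interval -1.38 to -0.79, adjusted p = 0.00373). It was the 1 call among 16 chitinase and growth factor genes of this kind, of which 6 had an unadjusted p under 0.05 (median difference -0.15). The transferrin gene *Tsf1*, an iron carrier of the hemolymph, had 11618, 11617 and 10570.5 in *loj* head/thorax, against 11599.5, 11975 and 11148 in control head/thorax, and 4598, 4494 and 4094 in *loj* abdomens, against 3179, 2656 and 2744 in control abdomens. Its head/thorax groups overlapped (-0.04) and *Tsf1* rose in abdomen (0.62, adjusted p = 0.000997). The difference of -0.66 (adjusted p = 0.019) was lost without *loj* head/thorax 3, control head/thorax 1 or 2 or *loj* abdomen 2 (adjusted p up to 0.0663). A second *Tsf1* probe set expressed in both body parts gave -0.74 (adjusted p = 0.0996), and *Tsf1* was the 1 call among 15 storage, transport and yolk protein genes (median difference 0.03).

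*CG13324* had 4457, 6093 and 4647 in *loj* head/thorax, against 2366, 3107 and 2554 in control head/thorax. Abdomens had 3211, 5495 and 3828 in *loj*, against 581, 439.8 and 785 in controls. The change was 0.92 in head/thorax (adjusted p = 0.0503) and 2.80 in abdomen (adjusted p = 7.87e-05), and *loj* and control did not overlap in either. The difference of -1.88 (adjusted p = 0.0299) held only without *loj* head/thorax 2, *loj* abdomen 1 or control abdomen 2 or 3, with an adjusted p of up to 0.0849 without the others, and was lost in the body part block (adjusted p = 0.108). *Mur29B*, a mucin-related gene, was 499, 453 and 502 in *loj* head/thorax, against 747, 572 and 602 in control head/thorax, and 1282, 1588 and 1457 in *loj* abdomens, against 904, 768 and 851 in control abdomens. Its change was -0.39 in head/thorax (adjusted p = 0.0833), it rose in abdomen (0.78, adjusted p = 0.00316), and the changes differed by -1.17 (adjusted p = 0.00702), a call that held with each array left out.

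The difference of *CG5493* was the largest in size of the 60, -5.70 (adjusted p = 0.00116), and it rests on values near the background. Head/thorax had 2335, 2483 and 1976 in *loj*, against 1726, 1956 and 1449 in controls, bright and with a change of 0.41 (adjusted p = 0.759). Abdomens had 139.6, 83.6 and 28.4 in *loj*, against -14.8, -19.6 and -22.5 in controls, where 2 *loj* arrays just exceeded the level. With values set to the level the difference was 0.39 (adjusted p = 0.809), its sign turned. Control abdomens lay below 0 and no abdomen fold is given.

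The 15 lower calls with the larger change a fall in *loj* head/thorax also held genes of other kinds. *Rabex-5*, an exchange factor for the endosomal GTPase Rab5, had 208, 279 and 323 in *loj* head/thorax, against 843, 812 and 839 in control head/thorax. Abdomens had 222, 209 and 229 in *loj*, against 285, 284 and 304 in controls. The head/thorax groups were far apart and the abdomen groups apart by little (-1.65, adjusted p = 4.97e-05, against -0.40, adjusted p = 0.141), a difference of -1.24 (adjusted p = 0.0135) that held with each array left out and was lost in the body part block (adjusted p = 0.0591). Its neighbour on the chromosome, *scf*, which was chosen for that reason, went the other way: 0.45 in head/thorax and -0.20 in abdomen (difference 0.64, adjusted p = 0.0396), and its call held only without *loj* abdomen 1 or control abdomen 2, with an adjusted p of up to 0.107 without the others, and was lost in the genotype block (adjusted p = 0.0753).

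*cag* had 425, 454 and 446 in *loj* head/thorax, against 771, 1188 and 1122 in control head/thorax, with control replicate 1 lower than the other controls. Abdomens had 582, 669 and 555 in *loj*, against 578, 694 and 583 in controls, with overlap. The changes were -1.19 (adjusted p = 0.00102) and -0.04, differing by -1.15 (adjusted p = 0.0359), and the call held only without control head/thorax 1 or control abdomen 2, with an adjusted p of up to 0.0982 without the others. *CG4734* fell in both, 159, 286 and 232 in *loj* head/thorax, against 1326, 1528 and 1142 in control head/thorax, and 729, 689.7 and 761 in *loj* abdomens, against 1858, 1336 and 1514 in control abdomens. Its changes of -2.59 and -1.10 differed by -1.49 (adjusted p = 0.0384), and the call held only without *loj* head/thorax 1 or 2 or control abdomen 1, with an adjusted p of up to 0.118 without the others, and was lost under both blocks (adjusted p = 0.105 and 0.066). Of genes chosen after their values were seen, the potassium leak channel gene *Ork1* changed by -1.06 in head/thorax and -0.17 in abdomen (difference -0.89, adjusted p = 0.00271, held with each array left out), and *Jabba*, a lipid droplet protein, by -0.96 and -0.01 (difference -0.95, adjusted p = 0.0365). The *Jabba* call held only without control head/thorax 2, *loj* abdomen 3 or control abdomen 2, with an adjusted p of up to 0.106 without the others, and was lost in the genotype block (adjusted p = 0.145).

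The long noncoding RNA *lncRNA:alphagamma-element:CR32865* had 154, 201 and 164 in *loj* head/thorax, against 656, 644 and 534 in control head/thorax. It had 104, 119.6 and 76.2 in *loj* abdomens, against 52.6, 50.9 and 85.9 in control abdomens. It fell in head/thorax (-1.83, adjusted p = 0.000975), and its abdomen change did not pass (adjusted p = 0.145). No abdomen fold is given, because no control abdomen array exceeded the level and the *loj* mean was not above that level. The difference was -2.51 (adjusted p = 0.00386; -1.70 with values set to the level), and the call was lost in the body part block (adjusted p = 0.0677). Its probe set is marked by the array design as holding probes that match other transcripts, so its signal may not be its own. Probe sets marked as matching several transcripts are those of *Idgf3*, *slow*, *Spn88Ea*, *Act5C*, *Act42A*, *CG7888*, *Ork1* and *qvr*, among others. A second *Idgf3* probe set gave a difference of -0.39 (adjusted p = 0.754), and second probe sets of *CG42565* and *Jabba* gave 0.67 (adjusted p = 0.726) and -0.54 (adjusted p = 0.481). Each of these differences was of the same sign and not called. The second *CG42565* probe set was above 0 in both body parts, at 1.40 in head/thorax and 0.73 in abdomen.

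**Figure D4:**
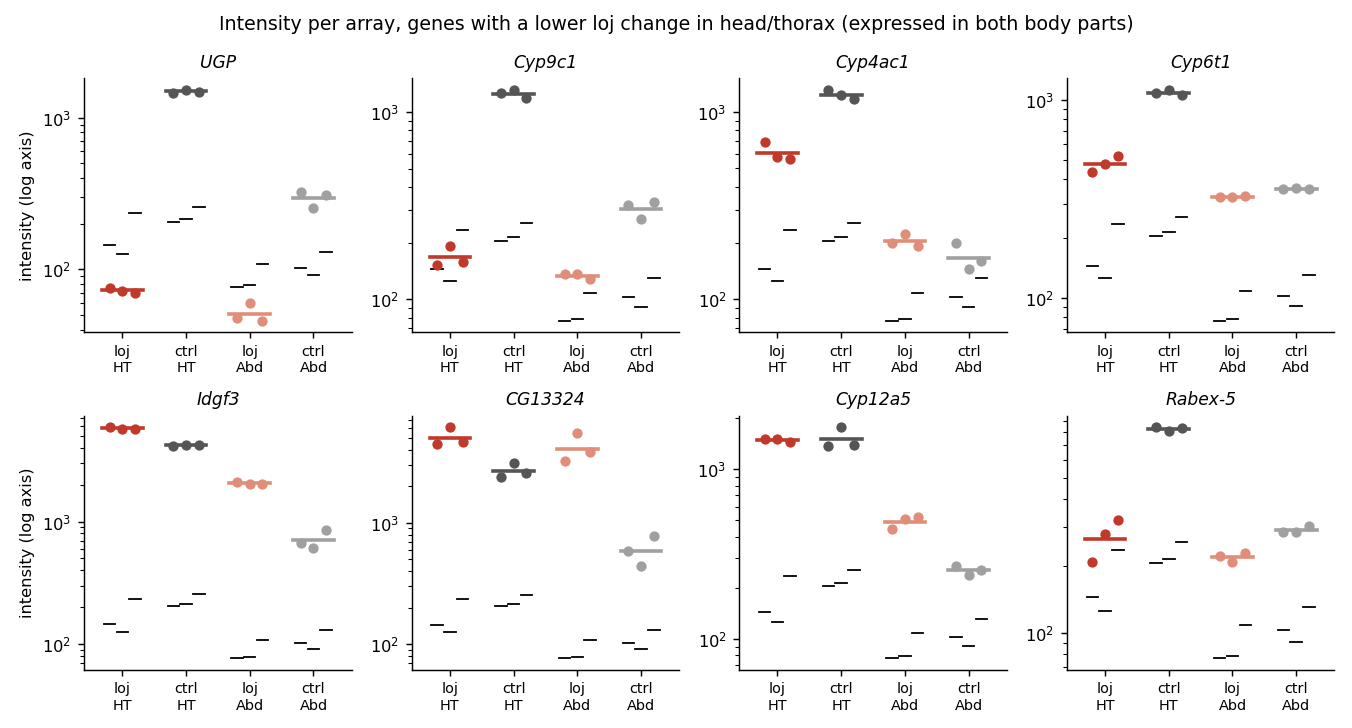
Intensity per array on a log axis for 8 genes with a lower *loj* change in head/thorax, drawn as in the plot of genes with a higher change. *UGP* and *Cyp9c1* were lower in *loj* in both body parts, *Cyp9c1* more so in head/thorax, and *UGP* was below the background level in all *loj* samples. *Cyp4ac1*, *Cyp6t1* and *Rabex-5* were lower in *loj* head/thorax with abdomen changes that did not pass. *Idgf3*, *CG13324* and *Cyp12a5* were higher in *loj* abdomens.

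In 6 calls the 2 body parts changed in opposite directions and each passed an adjusted p of 0.05 on its own, 4 of them also at 1.5-fold in both. Of these 4, *CG42565*, *CG8303* and *salm* reached 1.5-fold with control values below the level in 1 body part. *CG42565* had 246, 268 and 307 in *loj* head/thorax, against 86.3, 76.9 and 121 in control head/thorax. Abdomens had 921, 912 and 899 in *loj*, against 1581, 1376 and 1483 in controls. In head/thorax every *loj* array was above the level and no control array was, at least 1.22-fold higher, while every *loj* abdomen was below every control abdomen (-0.70, adjusted p = 0.0235). The difference was 2.25 (95% interval 1.80 to 2.71, adjusted p = 0.000492) and 0.98 with values set to the level (adjusted p = 0.00552). A second *CG42565* probe set, expressed in both body parts, changed by 1.40 in head/thorax and 0.73 in abdomen. The opposite directions were thus not shared by that probe set.

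*CG8303* ran the same way, with 246, 274 and 289.7 in *loj* head/thorax, against 142, 162 and 143 in control head/thorax, and 494, 445 and 545 in *loj* abdomens, against 879.9, 687 and 692 in control abdomens. No control head/thorax array exceeded the level, so *CG8303* was at least 1.20-fold higher in *loj* head/thorax, and it changed by -0.60 in abdomen. The difference was 1.46 (adjusted p = 0.00228) and 0.86 with values set to the level (adjusted p = 0.046), and both *CG42565* and *CG8303* were called with each array left out. *JhI-21*, an amino acid transporter gene, changed by 0.39 in head/thorax (adjusted p = 0.0474) and -0.42 in abdomen (adjusted p = 0.037), where 687, 612 and 788 in *loj* stood against 536, 502 and 552 in control head/thorax, and 1157, 1002 and 1003 in *loj* against 1417, 1477 and 1323 in control abdomens. Its difference of 0.80 (adjusted p = 0.0269) held only without *loj* head/thorax 1, 2 or 3, *loj* abdomen 1 or control abdomen 3, with an adjusted p of up to 0.0771 without the others, and was lost in the genotype block (adjusted p = 0.0889). The zinc finger gene *salm* ran in reverse, with a change of -0.59 in head/thorax and higher values in *loj* abdomens (difference -1.21, adjusted p = 0.0225). It was 473, 363 and 395 in *loj* head/thorax, against 666, 608 and 575 in control head/thorax, and 77.7, 88.1 and 66.8 in *loj* abdomens, against 51.4, 55.0 and 45.1 in control abdomens. No control abdomen array of *salm* exceeded the level. The *loj* abdomen mean was not above the level of the control arrays either, so no abdomen fold is given. With values set to the level the difference was -0.35 (adjusted p = 0.809). The *salm* call was lost without *loj* head/thorax 2 or 3, control head/thorax 1 or 2 or *loj* abdomen 1 or 2 (adjusted p up to 0.0833) and in the genotype block (adjusted p = 0.0763). The other 2 of the 6 were probe sets with no name or with several genes. *slow*, a secreted protein known from tendon cells, came close. It was 275, 294 and 327 in *loj* head/thorax, against 177, 179.9 and 138 in control head/thorax, and 201, 218 and 234 in *loj* abdomens, against 383, 288 and 301 in control abdomens, at least 1.33-fold higher in *loj* head/thorax (adjusted p = 0.00527), where no control array exceeded the level, with a change of -0.56 in abdomen (adjusted p = 0.0503). Its difference of 1.43 (adjusted p = 0.00786) was 0.97 with values set to the level (adjusted p = 0.0329), and the call was lost in the body part block (adjusted p = 0.0849).

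The test of the difference also bears on genes called in both body parts. Changes in head/thorax were called for 475 probe sets (2.53%) and in abdomen for 419 (2.23%), and 143 were called in both, 106 up and 33 down in both and 4 in opposite directions. Of the 143, 10 passed the test of the difference: *CecB*, *E(spl)m5-HLH*, *UGP*, *Cyp9c1*, *CG4734*, *CG30287*, the opposite pairs *CG42565*, *CG8303* and *salm*, and 1 without a name. The 143 were not divided by expression, and *CG30287* had no abdomen array above the level. *E(spl)m5-HLH*, a Notch target that represses transcription, had 3429, 3748 and 4642 in *loj* head/thorax, against 62.6, 74.7 and 78.7 in control head/thorax, and 1339.6, 1715 and 2009 in *loj* abdomens, against 106, 104 and 103 in control abdomens. It rose at least 17.4-fold in head/thorax and by 4.00 in abdomen, and its difference of 1.77 (adjusted p = 0.00312) was 0.24 with values set to the level (adjusted p = 0.809), the control head/thorax values all being below the level.

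Apart from *loj*, the 5 genes expressed in both body parts with the lowest adjusted p for a change of 1 direction in both were *UGP*, *E(spl)m5-HLH*, *CG8768*, *teq* and *Rnf11*. Of these *UGP* and *E(spl)m5-HLH* passed the test of a difference and *CG8768*, *teq* and *Rnf11* did not. *CG8768* was 112, 112 and 94.5 in *loj* head/thorax, against 1264, 1083 and 1164 in control head/thorax, and 11.9, 10.7 and 15.8 in *loj* abdomens, against 192, 211 and 223 in control abdomens. The *loj* values were below the level in both body parts, at least 7.18-fold lower in head/thorax and at least 2.39-fold lower in abdomen. The difference was 0.58 as measured (95% interval 0.11 to 1.06, adjusted p = 0.399), and with values set to the level it was -1.59 (adjusted p = 0.00657), of the opposite sign. *teq* (*Tequila*), a secreted serine protease, was 517, 586 and 423 in *loj* head/thorax, against 4373, 4639 and 3954 in control head/thorax, and 33.1, 42.1 and 22.6 in *loj* abdomens, against 467, 304 and 346 in control abdomens. It changed by -3.10 in head/thorax and was at least 4.21-fold lower in abdomen, where no *loj* array exceeded the level. The difference was 0.44 as measured (95% interval -0.24 to 1.12, adjusted p = 0.739) and -1.02 with values set to the level (adjusted p = 0.0569), again of the opposite sign. *Rnf11* changed by -1.70 in head/thorax and was at least 2.68-fold lower in abdomen, where no *loj* array exceeded the level either. Its difference was 0.57 as measured (95% interval 0.10 to 1.05, adjusted p = 0.407) and -0.28 with values set to the level (adjusted p = 0.809). A p that misses the threshold does not show that these changes are equal.

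Most genes called in 1 body part alone were not shown to differ between body parts. In simulated data 38% of 1.5-fold differences added to brighter probe sets were called, so a missed call does not show equal changes. No differences were added to dim probe sets, so that share does not cover them. Of 332 probe sets called for head/thorax alone, 222 were expressed in head/thorax. Of the 332, 252 were expressed in abdomen (196 of these also in head/thorax), and 32 of the 252 passed the test of the difference. Another 67 were not expressed in abdomen, of which 10 passed, and 13 were at the limit there, of which 2 passed. Of 276 called for abdomen alone, 178 were expressed in abdomen. Of the 276, 206 were expressed in head/thorax (153 of these also in abdomen), and 25 of the 206 passed. Another 56 were not expressed in head/thorax and 6 passed, and 14 were at the limit there and 1 passed. The change had the same sign in the other body part in 269 of the 332 and in 222 of the 276.

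Among the 21 calls expressed in 1 body part alone, 8 had the larger change where the gene was expressed. *ND-B8*, chosen after its values were seen, encodes a subunit of mitochondrial complex I. It was lower in *loj* head/thorax, at 1722, 1685 and 1776 in *loj* against 4031, 3948 and 4062 in controls, and abdomen values were all below 0, which were all set to 1. The head/thorax change was -1.22 (adjusted p = 0.000975), and *ND-B8* was the 1 call of the 12 expressed in head/thorax and not in abdomen that was also made with values set to the level (-0.92, adjusted p = 0.0444). Its difference of -1.22 (adjusted p = 0.0294) was lost without *loj* head/thorax 1, 2 or 3 or control head/thorax 1, 2 or 3 (adjusted p up to 0.191) and under both blocks (adjusted p = 0.161 and 0.126). Why a gene of the respiratory chain had no signal in abdomens was not tested.

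The odorant-binding protein gene *Obp84a* fell in head/thorax, 204, 218 and 211 in *loj* against 500.1, 396 and 489 in controls (-1.12, adjusted p = 0.00528), and was below the level in abdomen. Its difference of -1.54 (adjusted p = 0.0243) was -0.77 with values set to the level (adjusted p = 0.368). The call was lost without *loj* head/thorax 2 or 3 or control head/thorax 1 or 3 (adjusted p up to 0.0907) and under both blocks (adjusted p = 0.0937 and 0.0628). *CG31323*, *CG13071* and *CG30287*, named after their values were seen, were of the same kind. *CG30287* had 323, 424 and 444 in *loj* head/thorax, against 37.9, 56.4 and 46.3 in control head/thorax (at least 1.75-fold higher). *CG31323* was at least 1.99-fold lower, and *CG13071* was higher (adjusted p = 0.000975). No fold is given for *CG13071*, because no control head/thorax array exceeded the level and the *loj* mean was not above that level. With values set to the level the differences of *CG30287*, *CG31323* and *CG13071* were 1.11, -0.69 and 0.15, in place of 2.03, -1.78 and 1.62, and none was called. None of the 3 had an abdomen array above the level. The call of *CG13071* held with each array left out, that of *CG30287* held only without *loj* head/thorax 1 or control abdomen 1, with an adjusted p of up to 0.107 without the others, and was lost under both blocks (adjusted p = 0.0873 and 0.122), and that of *CG31323* held only without *loj* head/thorax 1 or 3, *loj* abdomen 1 or control abdomen 3, with an adjusted p of up to 0.1 without the others, and was lost in the body part block (adjusted p = 0.109). *CG12517* had head/thorax values of 14.0, 16.6 and 16.3 in *loj* and 17.5, 19.6 and 20.9 in controls, far below the level, and in abdomen it rose, with 731, 732 and 872 in *loj* abdomens, against 427, 298 and 367 in control abdomens (1.11, adjusted p = 0.0032). Its difference of -1.41 (adjusted p = 0.0212) was -1.57 with values set to the level (adjusted p = 0.00629), and its call was lost without control head/thorax 2 or 3, *loj* abdomen 1, 2 or 3 or control abdomen 3 (adjusted p up to 0.057) and under both blocks (adjusted p = 0.0943 and 0.0677). A probe set without a gene name was also called both ways, with 43.1, 41.1 and 50.3 in *loj* against 590.3, 355 and 547 in control abdomens (at least 5.59-fold lower; difference 3.28, adjusted p = 0.000414). *CG31810*, also outside the rule, fell at least 1.85-fold in *loj* abdomens, and its call held only without *loj* head/thorax 1 or control abdomen 1, with an adjusted p of up to 0.0839 without the others, and was lost under both blocks (adjusted p = 0.15 and 0.0875).

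In the other 13 the larger change lay among values under the background level of the body part that does not express the gene. *CG11672* was bright in head/thorax, with overlap, at 2726, 3094 and 3376 in *loj* and 2892, 2762 and 2610.5 in controls. Abdomens had 18.5, 12.6 and 10.7 in *loj* and -8.76, -7.28 and -2.10 in controls, all far below the level of at least 76.8. This gave a difference of -3.61 with an adjusted p of 0.000127, and with values set to the level a difference of 0.45 (adjusted p = 0.757). *Obp19a*, an odorant-binding protein gene, was 743, 662 and 639 in *loj* head/thorax, against 1122, 957 and 1219 in control head/thorax, without overlap, a change of -0.69 that did not pass (adjusted p = 0.311). Its difference of -3.85 came mostly from abdomen values of 18.8, 13.6 and 13.6 in *loj* against 1.72, 2.80 and -3.67 in controls. A second *Obp19a* probe set gave -1.39 (adjusted p = 0.356).

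*TpnC4*, a troponin C of flight muscle, was 9910.5, 10094 and 10568 in *loj* head/thorax, against 11387, 11509.7 and 11245 in control head/thorax, a change of -0.16 (adjusted p = 0.826). In abdomens it was 21.0, 22.2 and 15.6 in *loj*, against 44.3, 73.2 and 87.2 in controls, with 0 of 6 arrays above the level, and its difference of 1.60 (adjusted p = 0.0388) was 0.14 with values set to the level (adjusted p = 0.809). It was the 1 call among 17 flight muscle genes, whose median difference was -0.03 and whose summed level overlapped between *loj* and control abdomens. *Cyp4ac2*, *qvr* (a regulator of potassium channels), *CG11099* and *yellow-e3* were of the same kind. Their differences of -3.14, 2.08, 2.86 and -3.98 became -0.20, 0.14, 0.18 and 0.29 with values set to the level, with the sign turned for *yellow-e3*. Head/thorax changes of these 4 lay between -0.50 and 0.29 and none passed. The *CG11099* call held with each array left out. The *yellow-e3* call was lost without *loj* head/thorax 3, control head/thorax 1, 2 or 3 or *loj* abdomen 1 or 2 (adjusted p up to 0.077) and under both blocks (adjusted p = 0.0698 and 0.114). That of *Cyp4ac2* held only without control abdomen 1, with an adjusted p of up to 0.126 without the others, and was lost under both blocks (adjusted p = 0.0698 and 0.121), and that of *qvr* held only without control abdomen 3, with an adjusted p of up to 0.171 without the others, and was lost under both blocks (adjusted p = 0.152 and 0.126). The *TpnC4* call held only without control abdomen 1, with an adjusted p of up to 0.121 without the others, and was lost under both blocks (adjusted p = 0.0889 and 0.138).

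The mirror image held for genes expressed in abdomen and not in head/thorax. *CG18586* had 49.3, 43.5 and 40.4 in *loj* against 2.42, 2.33 and 1.84 in control head/thorax, all below the level, and 269, 281 and 254 in *loj* abdomens, against 265, 306 and 287 in control abdomens, with overlap. Its difference was 4.44 (adjusted p = 2.87e-05) and -0.37 with values set to the level (adjusted p = 0.809). *CG31265* had -2.98, -0.515 and -2.80 in *loj* against 18.8, 17.4 and 16.6 in control head/thorax, and 212, 197 and 237 in *loj* abdomens, against 305, 208 and 259 in control abdomens (difference -3.89; -0.22 at the level). The DNA replication gene *Ctf4* had 69.8, 63.9 and 38.7 in *loj* against 149, 124 and 139.7 in control head/thorax, below the level on all 6 arrays, and was bright in abdomens, with overlap, at 2789.7, 2729 and 2235 in *loj* and 2389, 2479 and 2109 in controls (difference -1.45; -0.61 at the level, adjusted p = 0.559). *CG17684* (-2.38; -0.76 at the level) and *lncRNA:CR43242* (-1.23; -0.57 at the level) were alike, and the call of the second was lost without control head/thorax 1 and under both blocks (adjusted p = 0.0667 and 0.0908). The *Ctf4* call held only without *loj* head/thorax 1 or 3 or *loj* abdomen 3, with an adjusted p of up to 0.133 without the others, and was lost in the body part block (adjusted p = 0.0844).

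The class with 1 body part at the limit held 4 calls, all lower in head/thorax. *CARPB*, named after its values were seen and a carbonic anhydrase-related gene, was 185, 175 and 175 in *loj* head/thorax, against 563, 501 and 594 in control head/thorax, and 90.2, 72.9 and 91.3 in *loj* abdomens, against 119.5, 88.0 and 114 in control abdomens. Its changes were -1.63 in head/thorax (adjusted p = 7.53e-05) and -0.33 in abdomen (adjusted p = 0.274), its difference of -1.29 (adjusted p = 0.0149) was -1.19 with values set to the level (adjusted p = 0.0444), and the call was lost without control head/thorax 1 (adjusted p up to 0.0559). The 10 calls expressed in neither body part had differences of -6.41 to 6.23, the 2 widest of all calls among them, and none was called with values set to the level. Where the highest *Bacillus* control was the level in place of the 95th percentile, 39 calls in place of 60 counted as expressed in both body parts.

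**Figure D5:**
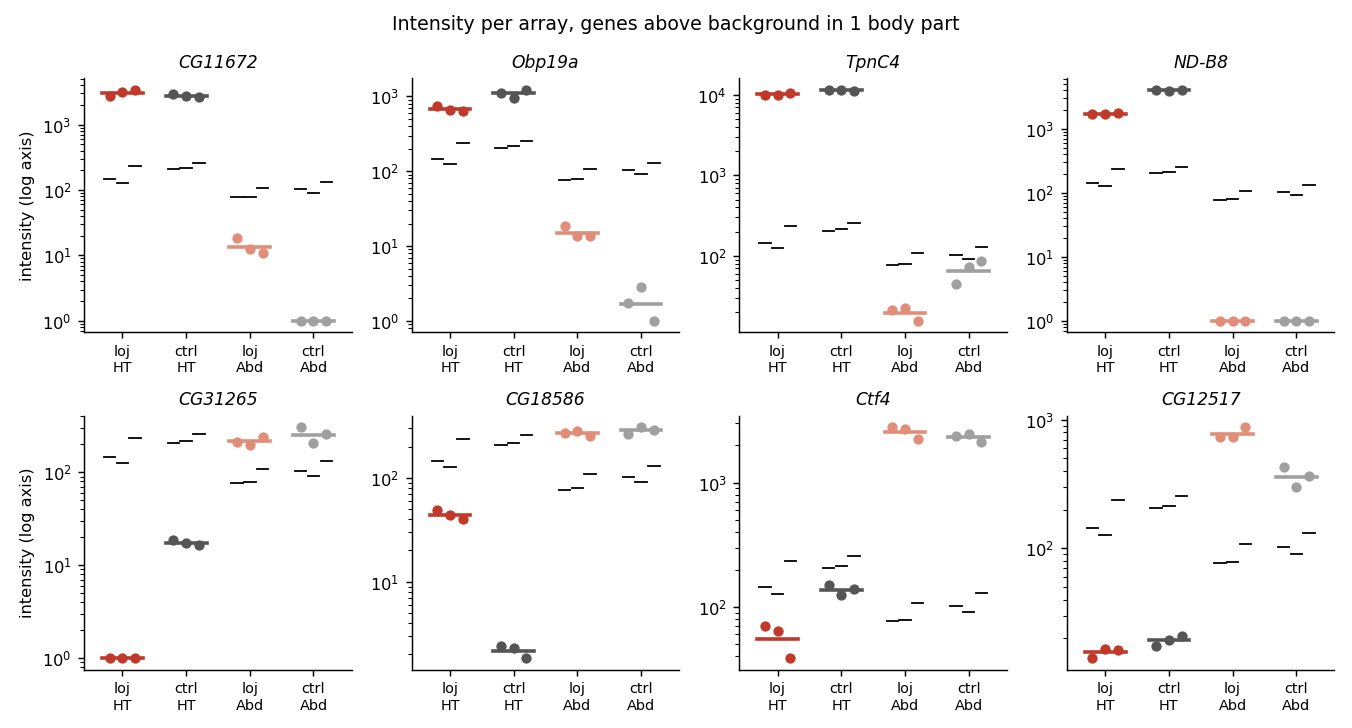
Intensity per array on a log axis for 8 genes above background in 1 body part, drawn as in the other plots of intensities, with values under 1 at 1. *ND-B8* was lower in *loj* where it was expressed and *CG12517* higher, while *CG11672*, *Obp19a*, *TpnC4*, *CG31265*, *CG18586* and *Ctf4* differed most between genotypes below the short black bars of the background level.

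Of 36 gene lists, 13 held a called gene and 23 none. Over all 12027 genes 0.64% were called, 1262 had an unadjusted p under 0.05, and 6265 differences were above 0 (median 0.01). Genes of ER protein folding and the unfolded protein response, 18 measured, gave no call by limma, 6 with an unadjusted p under 0.05, and 16 differences above 0 (median 0.22). None of them was called within either body part, against 3.03% of all genes in head/thorax and 2.76% in abdomen. Of 13 genes of the p24 family and of vesicle coats, *loj* among them, none was called for a difference and 1 had an unadjusted p under 0.05 (median 0.05). The 41 cytosolic ribosomal protein genes had a median difference of 0.01, 1 with an unadjusted p under 0.05 and no call. Hemocyte genes (14 measured) and nervous system genes (15) had no call and medians of -0.08 and -0.03, with 1 unadjusted p under 0.05 each, and the odorant-binding proteins had 2 calls of 48, both lower in head/thorax, with 13 at an unadjusted p under 0.05 and a median of -0.09.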

How the data were processed

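Affymetrix Drosophila Genome 2.0 arrays had been hybridised with RNA of 12 samples, 3 per group. The authors deposited 1 intensity per probe set and array on a linear scale. Their methods describe expression values from dChip (PM-MM and PM) and GCOS, while GCOS 1.2 appears in the submitters' notes on processing. The sources used here state neither which of these measures was deposited nor any scaling between arrays. Of the tested values 4546 (2.02%) were below 0, so log2 changes among dim probe sets depend on the floor of 1. Depth has no counterpart on arrays, and the median intensity was 145 to 160 in *loj* head/thorax, 145 to 153 in control head/thorax, 95.7 to 101 in *loj* abdomens and 93.4 to 102 in control abdomens.

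A floor of 1 was applied before taking log2, and the values were fitted with limma 3.58.1 in R 4.3.3 as 4 group means with an intensity trend, and adjusted by the Benjamini-Hochberg method. The 183 control probe sets were left out. The fit was tested on simulated data, with differences added to 50 of the brighter probe sets at each size. It called 38% of 1.5-fold, 78% of 2-fold and 98% of 4-fold differences, with 7 false calls among the other probe sets. Fold bounds set the mean of the brighter group against the dimmer group's background level or its own signal, whichever was higher. Gene names came from the platform annotation updated through RefSeq: 13647 probe sets had 1 gene, 402 several, 51 were named from the study's tables and 4669 had none.

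The comparison, gene lists and rules were chosen with earlier results of these data known. Named genes were, among calls with 1 gene name, the 12 highest and 12 lowest differences expressed in both body parts, the 6 largest in each class of 1 body part, all with opposite changes that each passed, up to 4 called members per list, *loj*, and the 5 with the lowest adjusted p in both body parts in 1 direction. Other genes are marked as chosen after their values were seen. Alternatives covered scaling, floors, filters, variance, blocks by replicate number, thresholds, the definition of expressed and single arrays left out. Replicate numbers come from the sample titles. No sequences are shown.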

Additional observations from a re-analysis of the deposited data

Results flagged for a closer look

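Each named gene below had a *loj* change that differed between head/thorax and abdomen by limma's test of the difference itself (adjusted p under 0.05 over 18769 probe sets). Values are the head/thorax change minus the abdomen change on the log2 scale. Of those expressed in both body parts, the *loj* change was higher in head/thorax for *CG5966* (2.77), *CecB* (2.75), *pirk* (2.56), *scro* (2.26), *CG42565* (2.25), *E(spl)m5-HLH* (1.77), *CG10383* (1.76), *Drs* (1.73), *sosie* (1.69), *CG8303* (1.46), *slow* (1.43), *Hsp23* (1.24), *JhI-21* (0.80), *dome* (1.03) and *Spn88Ea* (0.84). It was lower in head/thorax for *CG5493* (-5.70), *lncRNA:alphagamma-element:CR32865* (-2.51), *CG13324* (-1.88), *UGP* (-1.83), *Cyp9c1* (-1.71), *CG4734* (-1.49), *Ugt37A3* (-1.34), *Cyp4ac1* (-1.34), *Rabex-5* (-1.24), *salm* (-1.21), *Mur29B* (-1.17), *cag* (-1.15), *Idgf3* (-1.08), *Cyp6t1* (-1.06), *Cyp12a5* (-0.96) and *Tsf1* (-0.66). For genes expressed in head/thorax and not in abdomen the differences were *yellow-e3* (-3.98), *Obp19a* (-3.85), *CG11672* (-3.61), *Cyp4ac2* (-3.14), *CG11099* (2.86), *qvr* (2.08), *TpnC4* (1.60) and *Obp84a* (-1.54). For genes expressed in abdomen and not in head/thorax they were *CG18586* (4.44), *CG31265* (-3.89), *CG17684* (-2.38), *Ctf4* (-1.45), *CG12517* (-1.41) and *lncRNA:CR43242* (-1.23). In both of these classes most differences rest on intensities below the background level in the body part without expression, as the values given with each gene show. Among those expressed in both body parts, *CG5493*, *scro*, *CecB*, *E(spl)m5-HLH*, *Ugt37A3* and *salm* were not called with values set to the level. The value of *UGP* is not a measured size, both *loj* groups being below the level. Groups of 3 arrays are too small for a check of single outlying samples.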

How the results depend on the processing

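Alternatives were run on the counts of 44 higher, 51 lower and 60 expressed-in-both calls and on 49 named genes. Setting intensities under 32 to 32 gave 69 higher and 101 lower calls, and adding 32 gave 82 lower. Without an intensity trend 31 calls were expressed in both. An unadjusted p under 0.001 in place of the adjusted p gave 78 higher, 91 lower and 110 expressed in both. The highest *Bacillus* control as the level left 39 expressed in both. With each array left out in turn, higher calls numbered 27 to 76, lower calls 27 to 60, and calls expressed in both 38 to 85, the lowest without control head/thorax replicate 1.

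The replicate block for each genotype and number gave 31 higher, 31 lower and 45 expressed in both, and the replicate block for each body part and number gave 30, 26 and 40. Over probe sets at or above the median intensity, same-numbered samples deviated together in every pair for *loj* and control head/thorax (r = 0.13, 0.11 and 0.13) and for *loj* abdomen and *loj* head/thorax (r = 0.38, 0.17 and 0.36). For control abdomen and control head/thorax r was 0.03, 0.12 and 0.28, and for *loj* and control abdomens it was -0.01, 0.08 and 0.20. Samples of unlike number had r of -0.35 to -0.04 for *loj* abdomen and *loj* head/thorax, and r of both signs in the other comparisons. Deviations were taken from group means, so r of unlike numbers is pulled down where that of like numbers is high. Over all probe sets, r for *loj* abdomen and *loj* head/thorax was 0.08, -0.002 and 0.06. Replicate 3 had the highest background level in every group: 236 in *loj* and 256 in control head/thorax, 108 in *loj* and 131 in control abdomens. A pairing over all 12 arrays is thus not established, and a shared effect of replicate number was not tested further. Blocking changed no call of a named gene within head/thorax. Of the 49 named genes, 15 were no longer called with numbers shared by body parts and 20 with numbers shared by genotypes.

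Quantile normalization over 12 arrays or within body parts, median centring, array weights, unmoderated variance, a filter on dim probe sets, a 1.5-fold minimum and expression on all 3 arrays kept all counts within 1.5 times, and no named gene changed sign under the 3 scalings. Signs turned with intensities under the background level set to it for *CG5493* (0.39), *yellow-e3* (0.29), *CG11672* (0.45), *CG18586* (-0.37) and *CG8768* (-1.59) and, called neither way, *loj* (0.75), *teq* (-1.02) and *Rnf11* (-0.28), and with intensities under 32 set to 32 for *yellow-e3* (0.18), *CG11672* (0.15), *CG11099* (-0.12), *qvr* (-0.16), *CG31265* (0.24) and *CG8768* (-0.76). With 32 added *CG8768* (-0.70) and *teq* (-0.38) turned. Each of these genes had values below the level in at least 1 group. With values set to the level, part of a difference comes from the levels themselves, which differ between groups. A probe set below the level on all 12 arrays took -0.17 from them alone. Other causes were not tested. Signal over background limits every gene with a group below the level, since a change there has no measured size.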
